A study of Mus musculus with 386 samples.

Results

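Glutamate, GABA and glycine are the main fast and modulatory amino acid transmitters of the brain, and the genes described here encode the subunits of their receptors. A gene was taken as a receptor subunit when its single symbol on the array began with Gria, Grik, Grin1, Grin2, Grin3, Grm and a digit, Gabra, Gabrb, Gabrd, Gabre, Gabrg, Gabrq, Gabrp, Gabrr, Gabbr, Glra or Glrb, and where a symbol had several probe clusters the one with the highest mean signal was kept. This gave 43 of the 18820 genes on the array: 4 AMPA receptor subunits, 5 kainate receptor subunits, 5 NMDA receptor subunits, 7 metabotropic glutamate receptors, 15 GABAA receptor subunits, 2 GABAB receptor subunits and 5 glycine receptor subunits. Gria3, Gabra3, Gabrq, Gabre, Glra2 and Glra4 lie on the X chromosome, a total of 6. Grin3b was read only by clusters shared with another gene, and subunits outside these 43 were not analysed here.

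AMPA, kainate and NMDA receptors are cation channels that open when glutamate binds, and each is built from subunits whose mixture sets conductance, kinetics and calcium entry. GABAA and glycine receptors are chloride channels of the pentameric ligand-gated family, whereas metabotropic glutamate receptors and GABAB receptors act through G proteins. Because neurons switch subunits as the brain matures and because subunits differ between regions, the set present in a tissue is often read as a description of its synapses.

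Affymetrix Mouse Gene 1.1 ST arrays measured total RNA of brain, lung, kidney and liver of 111 mice aged 23 days. The mice were F1 hybrids from the 6 reciprocal crosses among the wild-derived inbred strains CAST, PWK and WSB, written with the dam first as CASTxPWK, PWKxCAST, CASTxWSB, WSBxCAST, PWKxWSB and WSBxPWK, and the 3 inbred strains themselves. Both sexes were present in each of the 9 crosses, the labels name no transgene and no treatment, and each array held 1 tissue of 1 animal. CAST and PWK were derived from Mus musculus castaneus and Mus musculus musculus mice and WSB from Mus musculus domesticus mice, so each group samples 1 inbred genome and not a subspecies, and replicates are separate animals of that genome. There were 85 brain, 98 lung, 102 kidney and 101 liver arrays, with 6 to 13 arrays for each cross in each tissue, and the number of arrays limits the precision of every value. All values are the deposited RMA signals on a log2 scale, so a difference of 1 is a doubling of signal. Levels are not compared between different genes, because probes differ in brightness.

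The tissue labels were checked against marker genes. All 9 neuron markers on the array were highest in brain, as were 6 of 6 lung epithelium markers in lung, 6 of 6 kidney tubule markers in kidney and 6 of 6 hepatocyte markers in liver. The sex-linked genes of 2 arrays went against their sex labels: the library labelled female PWKxCAST brain replicate 9 and the library labelled male PWKxWSB liver replicate 8. Leaving each out in turn moved the counts given here by less than 1.5 times. As a measure of background, the signals of 1155 odorant and vomeronasal receptor genes, which are mostly silent outside sensory epithelia, were used. Their 95th percentile was 4.71 in brain, 4.66 in lung, 4.79 in kidney and 5.04 in liver. How the probes match the CAST, PWK and WSB genomes was not analysed here, and a strain difference in signal therefore need not be one in transcript amount. In bulk tissue, fewer cells of a type and less RNA per cell cannot be told apart.

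Nearly all subunits were expressed in brain, where 42 of the 43 exceeded the odorant receptor percentile, against 79% of all genes. The AMPA receptor subunits, which carry most fast excitation, averaged 11.71 for Gria1, 10.91 for Gria2, 11.11 for Gria3 and 9.96 for Gria4 over the 85 brains, with SDs of 0.10 to 0.18. The kainate receptor subunits averaged 7.41 for Grik1, 9.75 for Grik2, 10.18 for Grik3, 9.57 for Grik4 and 10.78 for Grik5, with SDs of 0.12 to 0.22. Of the NMDA receptor subunits, Grin2a averaged 10.58, Grin2b 10.94, Grin2c 9.58, Grin2d 8.31 and Grin3a 9.82, with SDs of 0.14 to 0.25. These families varied little from brain to brain.

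The metabotropic glutamate receptors averaged 10.37 for Grm2, 11.24 for Grm3, 9.79 for Grm4, 11.37 for Grm5, 9.59 for Grm7 and 7.93 for Grm8, while Grm6, the receptor of retinal ON bipolar cells, was at 5.27 ± 0.16 (SD, n = 85). The GABAB receptor, an obligate pair of Gabbr1 and Gabbr2, stood at 12.67 ± 0.091 and 12.49 ± 0.092 (SD, n = 85). Among the GABAA subunits, the alpha subunits Gabra2, Gabra3, Gabra4 and Gabra5 averaged 10.37, 10.80, 10.57 and 10.76, and the beta subunits Gabrb1 and Gabrb2 averaged 9.92 and 10.41. Gabrd, the delta subunit of extrasynaptic receptors, averaged 9.57, Gabrg1 8.69 and Gabrg3 10.16. Gabrq and Gabre, which are used by monoaminergic and hypothalamic neurons among others, averaged 7.98 ± 0.30 and 7.05 ± 0.52 (SD, n = 85). Gabrp at 4.90 ± 0.31 and Gabra6 at 4.94 ± 1.02 lay just above the odorant receptor percentile of 4.71 and Gabrr3 at 4.45 ± 0.27 below it, while Gabrr2 was at 5.73 ± 0.34 (SD, n = 85). Gabrr2 and Gabrr3 encode rho subunits, known mainly from retina. For the glycine receptors, the common beta subunit Glrb averaged 11.68 ± 0.12, Glra1 10.17 ± 0.46, Glra2 8.66 ± 0.29, Glra3 7.58 ± 0.29 and Glra4 5.54 ± 0.29 (SD, n = 85).

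**Figure D1:**
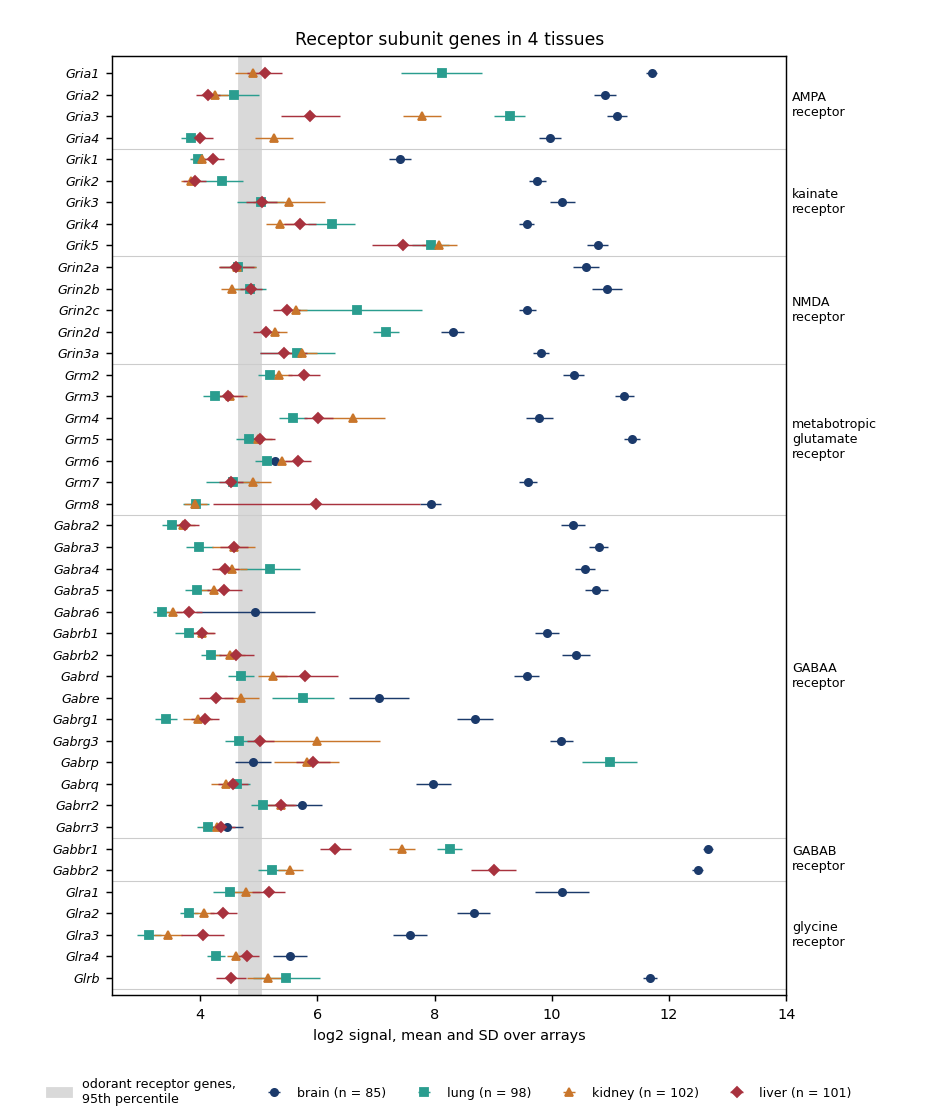
Mean log2 signal of each of the 43 receptor subunit genes in brain, lung, kidney and liver, grouped by receptor family; bars are 1 SD over the arrays of a tissue and the grey band spans the odorant receptor 95th percentiles, 4.66 to 5.04. Brain points lie to the right of the other tissues for nearly every gene, the clearest exception being Gabrp, whose lung point is at 10.98.

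Brain was compared with the mean of the 3 other tissues by limma, with 36 cross-by-tissue means and Benjamini-Hochberg adjustment over all 18820 genes. All 43 subunits passed an adjusted p of 0.05, against 92.9% of all genes, so passing says little by itself. The direction was one-sided: 41 were higher in brain, against 36.2% of all genes, while 39 exceeded the other tissues by 1 log2 unit or more, against 15.4%. The median difference of the 43 was 4.93, against -0.12 over all genes. Differences reached 6.82 ± 0.028 (SE) for Grm3, a presynaptic and glial group II receptor, 6.71 ± 0.025 for Gabra2, 6.62 ± 0.030 for Glrb and 6.59 ± 0.027 for Gria2, the subunit that keeps AMPA receptors impermeable to calcium. Smaller differences were found for Gabrr3 at 0.20 ± 0.030, Gabrr2 at 0.46 ± 0.030, Glra4 at 1.001 ± 0.024 and Gabra6 at 1.43 ± 0.062 (SE). Gabrp, the pi subunit known from epithelia, was lower in brain, with a difference of -2.67 ± 0.031, and Grm6 was lower by less, with -0.13 ± 0.024 (SE).

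Outside the brain, 22 of the 43 subunits exceeded the odorant receptor 95th percentile in lung, 21 in kidney and 18 in liver, against 79.2%, 77.9% and 75.8% of all genes. With the 99th percentile (5.35 in lung, 5.32 in kidney and 5.57 in liver) the counts were 12, 14 and 11, and in brain, at 5.24, it was 40. The shares of all genes above the 99th percentile are not given here, so these counts cannot be set against the array. Neuron markers also exceeded the 95th percentile there, 6 of 9 in lung, 7 in kidney and 6 in liver. The subunits named for each tissue were picked by signal, which ranks probe clusters and not transcript amounts. In lung these were Gabrp at 10.98 ± 0.46, Gria3 at 9.28 ± 0.26, Gabbr1 at 8.26 ± 0.21, Gria1 at 8.12 ± 0.69, Grik5 at 7.93 ± 0.32 and Grin2d at 7.17 ± 0.22 (SD, n = 98). In kidney these were Grik5 at 8.08 ± 0.30, Gria3 at 7.79 ± 0.32, Gabbr1 at 7.44 ± 0.22, Grm4 at 6.60 ± 0.55, Gabrg3 at 5.99 ± 1.09 and Gabrp at 5.82 ± 0.55 (SD, n = 102). In liver these were Gabbr2 at 9.01 ± 0.38, Grik5 at 7.46 ± 0.53, Gabbr1 at 6.31 ± 0.26, Grm4 at 6.01 ± 0.25, Grm8 at 5.98 ± 1.77 and Gabrp at 5.93 ± 0.29 (SD, n = 101). The large SDs of Grm8 in liver, Gabrg3 in kidney and Gria1 in lung came with differences between crosses that are described further on.

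Between the other tissues, 41 subunits differed for lung minus kidney (14 higher and 27 lower, against 91.5% of all genes called), 39 for lung minus liver (15 higher and 24 lower, against 95.6%) and 35 for kidney minus liver (15 higher and 20 lower, against 92.7%). Gabrp was higher in lung than in kidney by 5.15 ± 0.035 and than in liver by 5.04 ± 0.035 (SE). Gria1 was higher in lung than in kidney by 3.20 ± 0.033, and Grin2d by 1.89 ± 0.028 (SE). Gria3, an X-linked AMPA subunit, followed an order of lung, kidney and liver, with differences of 1.49 ± 0.043 for lung minus kidney and 1.89 ± 0.042 for kidney minus liver. Gabbr2 set liver apart, with differences of -3.78 ± 0.031 for lung minus liver and -3.46 ± 0.031 for kidney minus liver, whereas its partner Gabbr1 was higher in lung than in liver by 1.95 ± 0.028 (SE).

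Strain differences in brain were small. Each tissue was fitted with 18 cross-by-sex means, and genes under the 40th percentile of mean signal were left out, which left 11292 genes and 37 of the 43 subunits. Females and males had equal weight in each strain and F1 mean. The PWK brains were 2 males and 4 females, so those 2 males carried as much weight as the 4 females. The CAST brains were 3 females and 5 males. Gabra6, Gabrp, Gabrr2, Gabrr3, Glra4 and Grm6 were thus not tested in brain. For CAST minus PWK 13 of the 37 passed, against 40.9% of all genes, and 9 of them were higher in CAST, against 19.7% of all genes. For CAST minus WSB 17 passed, against 52.4%, and 12 were higher in CAST, against 26.6%. For PWK minus WSB 7 passed, against 40.4%, and 5 were lower in PWK, against 19.1%. In all, 23 of the 37 passed in at least 1 contrast, against 70.7% of genes, so receptor subunits were called no more often than the array at large. The median differences over the 37 were 0.13, 0.079 and 0.015, against -0.007, 0.002 and 0.016 over all genes. Differences of at least 0.5 were called for 0, 1 and 2 of the 37, against 8.18%, 8.69% and 7.49% of all genes. Markers of other brain cells and regions differed between the strains as well. Of 5 oligodendrocyte markers 4 were lower in CAST than in PWK and 4 lower in CAST than in WSB, with median differences of -0.277 and -0.308. Of 5 choroid plexus markers 4 were lower in CAST than in WSB (median -0.549) and 3 lower in PWK than in WSB (median -0.466). Of 6 striatum markers 3 were higher in CAST than in PWK (median 0.321) and 3 lower in PWK than in WSB (median -0.264), and of 7 astrocyte markers 4 were higher and 2 lower in PWK than in WSB. Of the 9 neuron markers 1, 1 and 2 were higher and 0, 1 and 2 lower in the 3 contrasts. The part of these markers in the subunit differences was not tested beyond the regional covariates given further on.

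**Figure D2:**
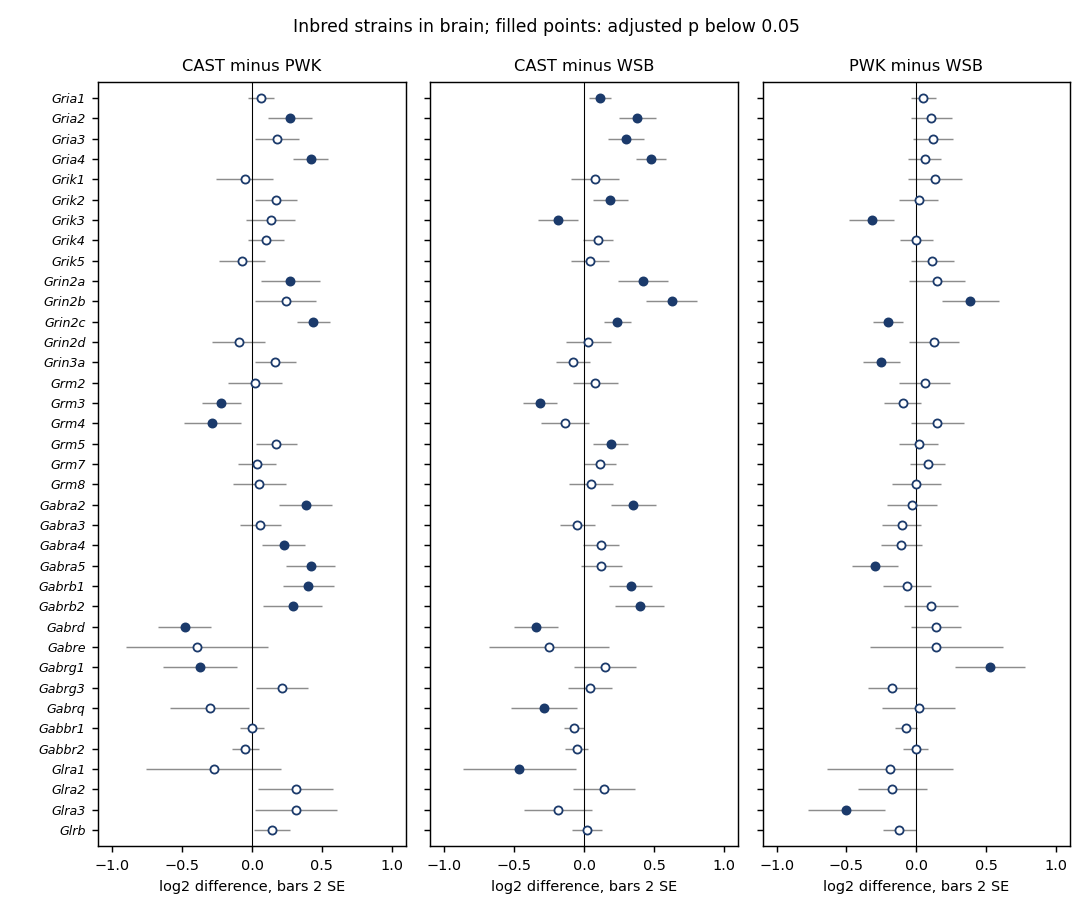
Differences in brain log2 signal between inbred strains for the 37 subunits tested, in 3 panels (CAST minus PWK, CAST minus WSB, PWK minus WSB); points are estimates, bars are 2 SE and filled points passed an adjusted p of 0.05. No difference exceeds the 0.63 of Grin2b for CAST minus WSB, and the 4 AMPA subunits lie to the right of 0 in that panel.

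All 4 AMPA subunits were called higher in CAST than in WSB, with a median difference of 0.34, and so were 3 of the 5 NMDA subunits. Of all genes 26.6% were called higher in that contrast, and families of 4 or 5 genes give only coarse shares. Gria4, an AMPA subunit of interneurons and fast auditory synapses, had a lowest, median and highest signal of 10.01, 10.22 and 10.43 in 8 CAST brains, 9.71, 9.82 and 9.90 in 6 PWK brains and 9.45, 9.81 and 10.05 in 11 WSB brains. CAST lay above PWK without overlap and above WSB with a slight overlap. The differences were 0.42 ± 0.063 for CAST minus PWK (adjusted p = 8.31e-08) and 0.48 ± 0.053 for CAST minus WSB (adjusted p = 3.32e-12, limma). Gria2 had 10.84, 11.23 and 11.37 in CAST, 10.67, 10.88 and 10.96 in PWK and 10.48, 10.72 and 11.03 in WSB, and the groups overlapped. CAST exceeded WSB by 0.38 ± 0.066 (adjusted p = 1.29e-06, limma). For Gria3 and Gria1 CAST exceeded WSB by 0.30 ± 0.065 and 0.12 ± 0.040 (SE).

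Grin2b encodes the NMDA subunit that dominates in the fetal and early postnatal forebrain. Its lowest, median and highest signals were 11.13, 11.30 and 11.61 in CAST, 10.85, 10.87 and 11.54 in PWK and 10.30, 10.68 and 11.02 in WSB. Every CAST brain was above every WSB brain, while PWK overlapped both. The difference for CAST minus WSB was 0.63 ± 0.091 (adjusted p = 1.83e-08) and for PWK minus WSB 0.39 ± 0.10 (adjusted p = 0.00134, limma). The PWK difference was not called without PWKxPWK replicate 3, when it was 0.27. That brain was from a male, and only 2 PWK brains were from males. Grin2a, which joins receptors as forebrain synapses mature, was higher in CAST, by 0.27 ± 0.11 over PWK and 0.42 ± 0.088 over WSB (SE).

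Grin2c, a cerebellar and glial NMDA subunit, was the one subunit called in all 3 strain contrasts in brain. It had 9.63, 9.78 and 9.91 in CAST, 9.27, 9.31 and 9.46 in PWK and 9.16, 9.59 and 9.67 in WSB. CAST did not overlap PWK, and WSB spanned both ranges in part. CAST exceeded PWK by 0.44 ± 0.059 (adjusted p = 2.75e-09) and WSB by 0.24 ± 0.049 (adjusted p = 3.56e-05, limma), and PWK was lower than WSB, at -0.20 ± 0.055 (adjusted p = 0.00183, limma). Grin3a, a subunit that lowers calcium entry, had 9.59, 9.67 and 9.82 in PWK and 9.60, 9.996 and 10.14 in WSB, overlapping ranges with PWK lower, at -0.25 ± 0.067 (adjusted p = 0.00176, limma).

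Among the kainate and metabotropic receptors fewer differences passed. Grik3 had 10.01, 10.12 and 10.22 in PWK against 10.10, 10.45 and 10.83 in WSB, with PWK lower, at -0.32 ± 0.081 (adjusted p = 0.000883, limma). Grm3 was lower in CAST, at 10.80, 11.02 and 11.26, than in WSB, at 11.14, 11.31 and 11.46. The Grm3 difference was -0.32 ± 0.059 against WSB (adjusted p = 6.28e-06) and -0.22 ± 0.071 against PWK (adjusted p = 0.00951, limma). Grm4 gave a CAST minus PWK difference of -0.29 ± 0.10, and Grm5 a CAST minus WSB difference of 0.19 ± 0.062 (SE).

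GABAA subunits moved in both directions. For CAST minus PWK 7 of the 11 tested passed, 5 higher and 2 lower, for CAST minus WSB 5 passed, 3 higher and 2 lower, and for PWK minus WSB 2 passed, 1 in each direction, against 40.9%, 52.4% and 40.4% of all genes. Gabrd had 8.90, 9.26 and 9.43 in CAST, 9.42, 9.76 and 9.91 in PWK and 9.36, 9.60 and 9.87 in WSB. CAST was the low strain and barely touched the other ranges, with differences of -0.48 ± 0.095 against PWK (adjusted p = 2.25e-05) and -0.34 ± 0.079 against WSB (adjusted p = 0.00019, limma). Gabra5, an extrasynaptic alpha subunit of hippocampus, had 10.52, 10.90 and 11.14 in CAST, 10.22, 10.44 and 10.70 in PWK and 10.48, 10.75 and 11.005 in WSB. PWK was the low strain for Gabra5, with 0.42 ± 0.088 for CAST minus PWK (adjusted p = 6.53e-05) and -0.30 ± 0.082 for PWK minus WSB (adjusted p = 0.00226, limma).

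Gabrg1, Gabra2, Gabra4 and Gabrb1 form a cluster on chromosome 5, and all 4 differed between CAST and PWK, a contrast in which 40.9% of all genes were called. Gabra2 had 10.27, 10.59 and 10.82 in CAST and 10.05, 10.17 and 10.27 in PWK, without overlap, a difference of 0.38 ± 0.095 (adjusted p = 0.00063, limma). Gabrb1 had 10.04, 10.27 and 10.53 in CAST and 9.68, 9.83 and 10.07 in PWK, overlapping slightly, a difference of 0.40 ± 0.092 (adjusted p = 0.000216, limma). Gabra4 had 10.38, 10.63 and 10.75 in CAST and 10.19, 10.39 and 10.60 in PWK, a difference of 0.23 ± 0.078 (adjusted p = 0.0153, limma). Gabrg1 went the other way, with 8.15, 8.46 and 8.85 in CAST and 8.59, 8.84 and 9.11 in PWK, a difference of -0.37 ± 0.13 (adjusted p = 0.0183, limma). Gabrg1 also gave the larger of the GABAA differences for PWK minus WSB, where WSB had 7.83, 8.36 and 8.63 and the difference was 0.53 ± 0.12 (adjusted p = 0.000345, limma).

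Gabra4 and Gabrb1 are transcribed in opposite directions, from the Gabra4 start and 1 of the annotated Gabrb1 starts that lie 387 bases apart, and their start regions are shown for that reason. Both windows are RefSeq sequence of build GRCm38.p6, which is C57BL/6J sequence and not that of CAST, PWK or WSB, and hold 300 bases around the start, most of them before it, in the direction of transcription. Capitals mark a match, on either strand, to 1 of 4 letter strings. GGGCGG is the core of a GC box and TATAAA that of a TATA box. The RE1 element, bound by the neuronal repressor REST, has a left part that was searched as TCAGCACC, and its right part was searched as GGACAGC. The Gabra4 window is at chr5:71658259-71658558 on the minus strand and holds 58.7% G and C, and the Gabrb1 window is at chr5:71657671-71657970 on the plus strand and holds 66.0%.
Gabra4: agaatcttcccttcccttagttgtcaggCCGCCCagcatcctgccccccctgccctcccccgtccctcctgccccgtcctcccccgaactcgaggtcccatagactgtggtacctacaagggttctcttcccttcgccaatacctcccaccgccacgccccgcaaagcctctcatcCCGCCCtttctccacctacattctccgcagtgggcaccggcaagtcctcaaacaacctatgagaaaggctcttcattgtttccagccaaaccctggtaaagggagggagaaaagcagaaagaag
Gabrb1: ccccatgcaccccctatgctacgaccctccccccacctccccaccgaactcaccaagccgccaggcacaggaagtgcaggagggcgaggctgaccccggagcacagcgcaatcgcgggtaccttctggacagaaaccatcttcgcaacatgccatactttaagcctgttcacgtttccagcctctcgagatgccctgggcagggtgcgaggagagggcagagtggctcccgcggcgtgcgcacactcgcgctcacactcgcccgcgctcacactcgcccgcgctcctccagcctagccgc

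Of the RefSeq promoter windows, 40 belonged to 33 of the 43 subunits. GGGCGG was found in 20 of the 40 windows (50%), against 35.7% of the 32851 windows of all genes. TATAAA was found in 4 (10%), against 13.6%, GGACAGC in 4 (10%), namely in Glra2, Glrb, Gria2 and Grm2, against 6.56%, and TCAGCACC in 1 (2.5%), in Grm2, against 1.65%. No string contains another, and a match is a description of the sequence, not of a bound site. Grm2, a presynaptic group II receptor, is shown because its window at chr9:106656060-106656359, minus strand, was the one that held both RE1 parts.
Grm2: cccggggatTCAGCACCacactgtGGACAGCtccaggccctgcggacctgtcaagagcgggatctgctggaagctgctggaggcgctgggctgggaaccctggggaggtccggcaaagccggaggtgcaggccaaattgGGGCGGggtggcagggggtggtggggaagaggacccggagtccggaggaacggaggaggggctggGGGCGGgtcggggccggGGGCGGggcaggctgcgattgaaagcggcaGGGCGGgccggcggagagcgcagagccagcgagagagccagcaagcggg

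Of the 4 glycine receptor subunits tested, Glra3 differed for PWK minus WSB (40.4% of all genes called) and Glra1 for CAST minus WSB (52.4% called). Glra3 had 6.60, 7.53 and 7.78 in PWK and 7.35, 7.85 and 8.32 in WSB, with PWK lower, at -0.50 ± 0.14 (adjusted p = 0.00202, limma). The ranges overlapped and 1 PWK brain, at 6.60, was below the rest. Without that brain, PWKxPWK replicate 1, the difference was -0.24 and was not called. It too was from a male, of which PWK had 2. Glra1 was lower in CAST than in WSB, at -0.46 ± 0.20 (adjusted p = 0.0478, limma). The subunits called in none of the 3 contrasts were Gabbr1, Gabbr2, Gabra3, Gabre, Gabrg3, Glra2, Glrb, Grik1, Grik4, Grik5, Grin2d, Grm2, Grm7 and Grm8.

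Proteins that assemble with or anchor the receptors were read as lists in the same brain fits. Of all genes 40.9% were called for CAST minus PWK, 52.4% for CAST minus WSB and 40.4% for PWK minus WSB. The counts below stand beside those shares, and the genes named were picked from the called ones by size. Of 12 AMPA receptor auxiliary genes, 3 were higher and 2 lower in CAST than in PWK, 4 higher and 2 lower in CAST than in WSB, and 3 higher and 3 lower in PWK than in WSB. Cnih3, a cornichon that slows AMPA receptor closing, was lower in CAST, at -1.18 ± 0.095 against PWK (adjusted p = 1.05e-17) and -1.095 ± 0.080 against WSB (adjusted p = 3.85e-20, limma). Cacng2, which encodes stargazin, gave 0.66 ± 0.14 for CAST minus WSB (adjusted p = 5.38e-05, limma). Of 17 genes of the glutamatergic postsynaptic density the counts were 3 higher and 2 lower, 5 higher and 1 lower, and 3 higher and 2 lower in the same order, with the scaffold Dlgap1 higher in CAST by 0.67 ± 0.13 against PWK and 0.81 ± 0.11 against WSB (SE). Of 8 genes of the inhibitory postsynapse, 1 was higher and 5 lower in CAST than in PWK, none higher and 4 lower in CAST than in WSB, and 1 higher and 1 lower in PWK than in WSB. Insyn1, a gephyrin-linked scaffold, was lower in CAST, at -0.39 ± 0.082 against PWK and -0.27 ± 0.069 against WSB (SE). Of the 3 KCTD partners of the GABAB receptor, 2 were higher in CAST than in WSB and 2 in PWK than in WSB. Kctd16 was among them, at 0.56 ± 0.11 and 0.33 ± 0.12 (SE), while neither GABAB subunit passed. Of 9 genes of GABA and glycine synthesis, release and uptake, 2, 1 and 0 were higher and 0, 2 and 4 lower in the 3 contrasts. Of 4 kainate receptor partners and delta receptors 2 were higher in CAST than in WSB, and of 8 genes of glutamate release and uptake 2, 2 and 1 were higher and 1, 1 and 2 lower. Neither of 2 chloride transporters passed. Slc6a13, a GABA transporter of meninges and vessels, gave 0.64 ± 0.11 for CAST minus PWK and had a PWK minus WSB difference of -0.68 ± 0.10 (SE).

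F1 brains were set against the mean of their parents, the mid-parent, on the log2 scale. For CAST and PWK 9 of the 37 subunits passed, against 18.9% of all genes, and 8 of them were lower in F1 brains, against 7.7% of all genes. For CAST and WSB 14 passed, against 37.1%, and 10 were lower in F1 brains, against 14%. For PWK and WSB 1 passed, against 10%. All differences were under 0.5, and the F1 range overlapped a parental range for every subunit. Grm4, Grm7, Grik3, Grik5, Grin2d and Gabbr1 were lower in F1 brains of both crosses that involve CAST, and these comparisons share the CAST brains.

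Grm7, a presynaptic group III receptor, had a lowest, median and highest signal of 9.34, 9.45 and 9.69 in CASTxPWK, 9.36, 9.61 and 9.72 in PWKxCAST, 9.48, 9.79 and 9.94 in CAST and 9.61, 9.74 and 9.87 in PWK. The F1 brains lay lower, with overlap, at -0.21 ± 0.043 (adjusted p = 0.000484, limma). In CASTxWSB it had 9.37, 9.45 and 9.66 and in WSBxCAST 9.16, 9.55 and 9.71, against 9.39, 9.62 and 9.78 in WSB and the CAST values above, at -0.21 ± 0.040 (adjusted p = 5.33e-05, limma). Grin2d, an NMDA subunit of brainstem and interneurons, had 7.86, 8.05 and 8.27 in CASTxWSB and 7.92, 8.15 and 8.51 in WSBxCAST, against 8.16, 8.45 and 8.57 in CAST and 8.07, 8.34 and 8.76 in WSB. F1 medians were below both parental medians and the difference was -0.31 ± 0.057 (adjusted p = 3.08e-05, limma). Grm4 had 9.38, 9.55 and 10.10 in CASTxWSB and 9.39, 9.59 and 9.79 in WSBxCAST, against 9.57, 9.75 and 10.07 in CAST and 9.60, 9.90 and 10.20 in WSB, a difference of -0.30 ± 0.060 (adjusted p = 0.000117, limma). Grik4, a kainate subunit of hippocampal mossy fibre synapses, was lower in F1 brains of CAST and WSB, at -0.17 ± 0.038 (adjusted p = 0.000407, limma).

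Higher in F1 brains of CAST and WSB were Gabrg1 by 0.35 ± 0.079, Gabra4 by 0.21 ± 0.046, Gabra3 by 0.15 ± 0.043 and Grm3 by 0.14 ± 0.042 (SE). Gabra2 was the one subunit called for PWK and WSB, at 10.17, 10.35 and 10.65 in PWKxWSB and 10.33, 10.44 and 10.80 in WSBxPWK, against 10.05, 10.17 and 10.27 in PWK and 9.98, 10.14 and 10.60 in WSB, a difference of 0.25 ± 0.058 (adjusted p = 0.00312, limma). In the same contrasts 2, 4 and 2 of the 5 oligodendrocyte markers tested were higher in F1 brains, for the crosses of CAST with PWK, of CAST with WSB and of PWK with WSB, with median differences of 0.11, 0.22 and 0.12. Of 9 interneuron markers 2, 1 and 1 were higher. The part of the oligodendrocyte markers in the subunit differences was not tested, while the interneuron list was 1 of the 8 regional lists of the next fit. With means of regional marker genes as covariates, an analysis chosen after the data were seen, the counts of subunits called were 0, 7 and 2. The shares of all genes called with those covariates are not given here, so whether the change is particular to the subunits was not tested.

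Direction of cross and sex gave no calls among the subunits in brain. Of the 37, 0 passed for CASTxPWK minus PWKxCAST (against 0.151% of all genes), 0 for CASTxWSB minus WSBxCAST (0.779%), 0 for PWKxWSB minus WSBxPWK (0.248%) and 0 for female minus male (0.0708%) by limma, and 3, 0, 2 and 5 had an unadjusted p under 0.05. With array weights in limma 2 passed for PWKxWSB minus WSBxPWK, namely Gabrg3 at -0.26 (adjusted p = 0.0187) and Glra2 at 0.33 (adjusted p = 0.0418).

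Some subunits varied from brain to brain with the mean signal of regional marker genes. The part of regional make-up in this was not tested. For each brain a mean was taken over marker genes of a region, and each gene was regressed on that mean within the 18 cross-by-sex groups, for 8 marker lists, an analysis chosen after the data were seen. Gabra6, the alpha subunit of cerebellar granule cells, had the steepest relation: its signal ran from 3.53 to 7.85 with a median of 4.68 over the 85 brains, while the mean of 10 cerebellar genes ran from 6.87 to 8.43. Its slope was 3.12 ± 0.13 log2 units per unit of the list mean (adjusted p = 2.58e-32, limma). Gabra6 exceeded the odorant receptor percentile in 39 of the 85 brains and a signal of 6 in 14 brains from 8 crosses. Of the 5 brains with the most Gabra6, 4 were among the 5 highest in cerebellar genes. How much cerebellum each brain sample held is not known. Of all genes 0.0744% were called for this list, and of the subunits 2, the other being Grm4, the receptor of parallel fibre terminals, at 0.36 ± 0.059 (adjusted p = 5.79e-05, limma).

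Glra1, the adult alpha subunit of spinal cord and brainstem, ran from 8.70 to 11.23, and its slope on the mean of 9 hindbrain and spinal cord genes, which ran from 5.89 to 7.57, was 1.26 ± 0.12 (adjusted p = 3.68e-12, limma). In all 7 subunits were called for that list, against 4.36% of all genes, with Gabre, Gabrq and Grin2d rising and Gabrd, Gabra4 and Gabrr3 falling as the hindbrain genes rose. Gabrr3 averaged 4.45 in brain, under the odorant receptor percentile of 4.71. The counts were 8 for hypothalamus (4.35% of all genes), 18 for forebrain inhibitory interneurons (26.5%), 1 for cortex and hippocampus excitatory neurons (2.54%), 1 for striatum (0.792%), 0 for thalamus (0.133%) and 0 for olfactory bulb (1.25%). The single call for cortex and for striatum was Glra1, with slopes of -2.26 and -0.94. With the regional means as covariates, 14, 20 and 9 subunits were called for CAST minus PWK, CAST minus WSB and PWK minus WSB, against 13, 17 and 7 without them. The shares of all genes called in that fit are not given here, so whether the change is particular to the subunits was not tested. Grin2b for PWK minus WSB was then 0.060 (adjusted p = 0.65, limma) and Glra3 was -0.26 (adjusted p = 0.173, limma).

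**Figure D3:**
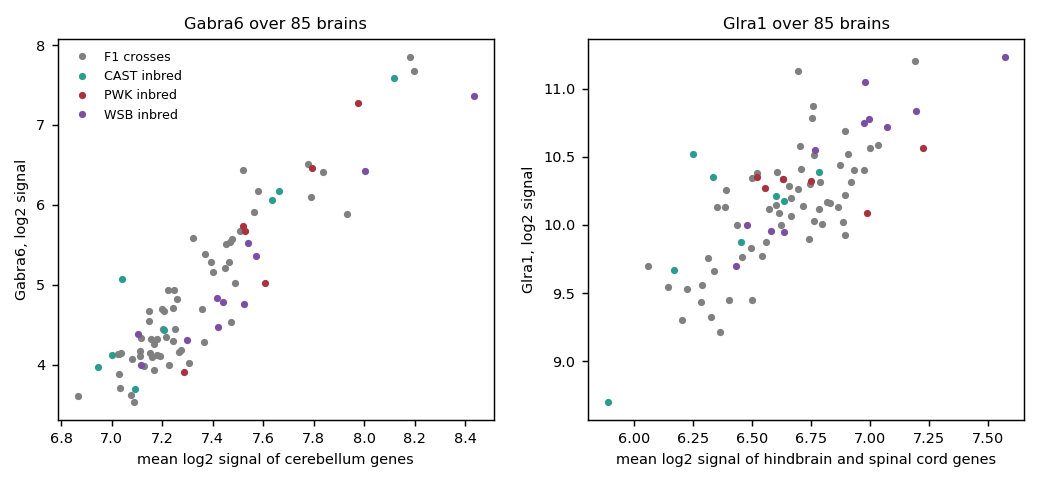
Log2 signal of Gabra6 against the mean of 10 cerebellar genes, and of Glra1 against the mean of 9 hindbrain and spinal cord genes, in the 85 brains; each point is 1 brain, grey for F1 crosses and coloured for CAST, PWK and WSB. Gabra6 climbs from under 5 to 7.85 and Glra1 from 8.70 to 11.23 as the marker means rise, in F1 and inbred brains alike.

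Outside the brain few subunits passed the level filter, and several of those differed between strains by more than any subunit in brain. Larger strain differences outside brain were found over the whole array as well. Per strain contrast, 7.49% to 8.69% of all genes were called with a difference of at least 0.5 in brain. In kidney, liver and lung the shares were 13.9% to 17.5%. In liver 5 were tested, and 4, 2 and 3 were called for CAST minus PWK, CAST minus WSB and PWK minus WSB, against 50.1%, 57% and 55.3% of all genes. In kidney 4 were tested, and 2, 2 and 3 were called, against 60.1%, 59.6% and 60.7%. In lung 7 were tested, and 5, 4 and 5 were called, against 62.7%, 59.9% and 61.4%. Counts this small are close to the background shares. The filter used the mean over all crosses, so a subunit could pass through the crosses where it was high. Grm8 in liver, Grin2c in lung and Grm4 in kidney had crosses below the means of subunits that were left out. The sizes of single differences are thus a description and support nothing about the subunits as a set.

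Grm8, a presynaptic group III glutamate receptor, exceeded the odorant receptor percentile in livers with a PWK parent and stayed below it in the others. The lowest, median and highest signals were 6.82, 7.47 and 7.86 in CASTxPWK, 6.84, 7.43 and 7.73 in PWKxCAST, 7.08, 7.35 and 7.89 in PWKxWSB and 7.01, 7.43 and 8.06 in WSBxPWK livers. They were 3.87, 4.13 and 4.52 in CASTxWSB, 3.80, 4.31 and 4.63 in WSBxCAST, 3.66, 3.94 and 4.50 in CAST, 7.91, 8.24 and 8.65 in PWK and 3.80, 4.04 and 4.73 in WSB livers. Livers with a PWK parent lay above all others without overlap, and the others were below the percentile of 5.04. The low side was thus a background signal, so the differences from it, the mid-parents that use it and the comparison with brain are not exact sizes. The differences were -4.28 ± 0.12 for CAST minus PWK (adjusted p = 2.86e-52), 4.16 ± 0.11 for PWK minus WSB (adjusted p = 1.48e-52) and -0.12 ± 0.11 for CAST minus WSB (adjusted p = 0.365, limma). F1 livers exceeded the log2 mid-parent by 1.32 ± 0.083 for CAST and PWK (adjusted p = 3.7e-25; 18.7% of all genes called) and by 1.31 ± 0.078 for PWK and WSB (adjusted p = 1.89e-26, limma; 17% called). Against the mean of the parents' unlogged signals these differences were 0.10 and 0.15, on signals that include that background. The CAST minus PWK difference of Grm8 was 0.052 in brain and -4.28 in liver, and brain minus liver was 4.33 ± 0.15 (adjusted p = 5.84e-85, limma; 25.2% of all genes called).

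Grik5, a kainate subunit that binds glutamate with high affinity, was highest in PWK in all 3 of the tissues outside brain. In liver it had 6.24, 6.64 and 7.08 in CAST, 8.13, 8.34 and 8.61 in PWK and 6.74, 7.15 and 7.49 in WSB, with no overlap between PWK and the others. CAST was lower than PWK, at -1.705 ± 0.10 (adjusted p = 2.05e-27) and PWK exceeded WSB by 1.16 ± 0.098 (adjusted p = 1.59e-18, limma). F1 medians were 7.64 in CASTxPWK, 7.83 in PWKxCAST, 7.76 in PWKxWSB and 7.85 in WSBxPWK, between the parents. In kidney CAST had 7.28, 7.92 and 8.24, PWK 8.28, 8.48 and 8.90 and WSB 7.54, 7.74 and 8.39, with overlap between PWK and WSB, and PWK minus WSB was 0.70 ± 0.077 (adjusted p = 2.46e-13, limma). In lung CAST had 7.55, 7.82 and 8.07, PWK 8.26, 8.47 and 8.84 and WSB 7.43, 7.65 and 7.84, PWK being above the others without overlap, and PWK minus WSB was 0.83 ± 0.058 (adjusted p = 6.89e-23, limma). In brain Grik5 was called in no strain contrast.

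Gabbr2 in liver had 8.83, 9.23 and 9.56 in CAST, 8.21, 8.56 and 9.10 in PWK and 8.25, 8.76 and 9.47 in WSB. The ranges overlapped, with CAST higher than PWK by 0.73 ± 0.11 (adjusted p = 1.75e-08) and than WSB by 0.40 ± 0.099 (adjusted p = 0.00038, limma). It was also higher in female than in male livers by 0.28 (adjusted p = 4.5e-06, limma), a contrast in which 13.8% of all genes were called. Liver means of 6 hepatocyte markers ran from 12.83 to 12.96 in CAST, 12.05 to 12.39 in PWK and 12.95 to 13.20 in WSB. The single markers did not share 1 direction. For CAST minus PWK 2 were higher and 4 lower (median -0.105), and for CAST minus WSB 1 and 3 (median -0.08). For PWK minus WSB 1 was higher and 2 lower (median 0.017), so the low PWK mean does not describe most of the list. Means of 9 neuron markers overlapped, from 5.52 to 5.90 in CAST, 5.56 to 5.75 in PWK and 5.35 to 5.73 in WSB. The part of the hepatocyte markers in the liver differences was not tested.

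Grm4 in kidney was low in WSB and not simply additive in the F1 kidneys. It had 6.58, 6.90 and 7.49 in CASTxWSB and 6.99, 7.29 and 7.56 in WSBxCAST, against 5.86, 6.75 and 7.35 in CAST and 5.12, 5.71 and 6.06 in WSB. Both F1 medians were above the CAST median, and these F1 kidneys did not overlap WSB, with an excess over the mid-parent of 0.85 ± 0.066 (adjusted p = 1.75e-19, limma; 42.7% of all genes called), or 0.74 against the mean of unlogged signals. F1 kidneys of PWK and WSB had 5.92, 6.10 and 6.37 in PWKxWSB and 5.79, 6.16 and 6.38 in WSBxPWK, against 6.77, 7.02 and 7.44 in PWK, and were thus below PWK without overlap and nearer to WSB. CAST exceeded WSB by 1.11 ± 0.092 (adjusted p = 2.97e-19) and PWK exceeded WSB by 1.40 ± 0.090 (adjusted p = 1.22e-25, limma). CASTxWSB was lower than WSBxCAST, at -0.41 ± 0.094, with overlap (adjusted p = 0.00455, limma; 2.44% of all genes called). Gria3 was lower in female than in male kidneys, at -0.28 (adjusted p = 3.14e-07, limma; 10.9% called).

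**Figure D4:**
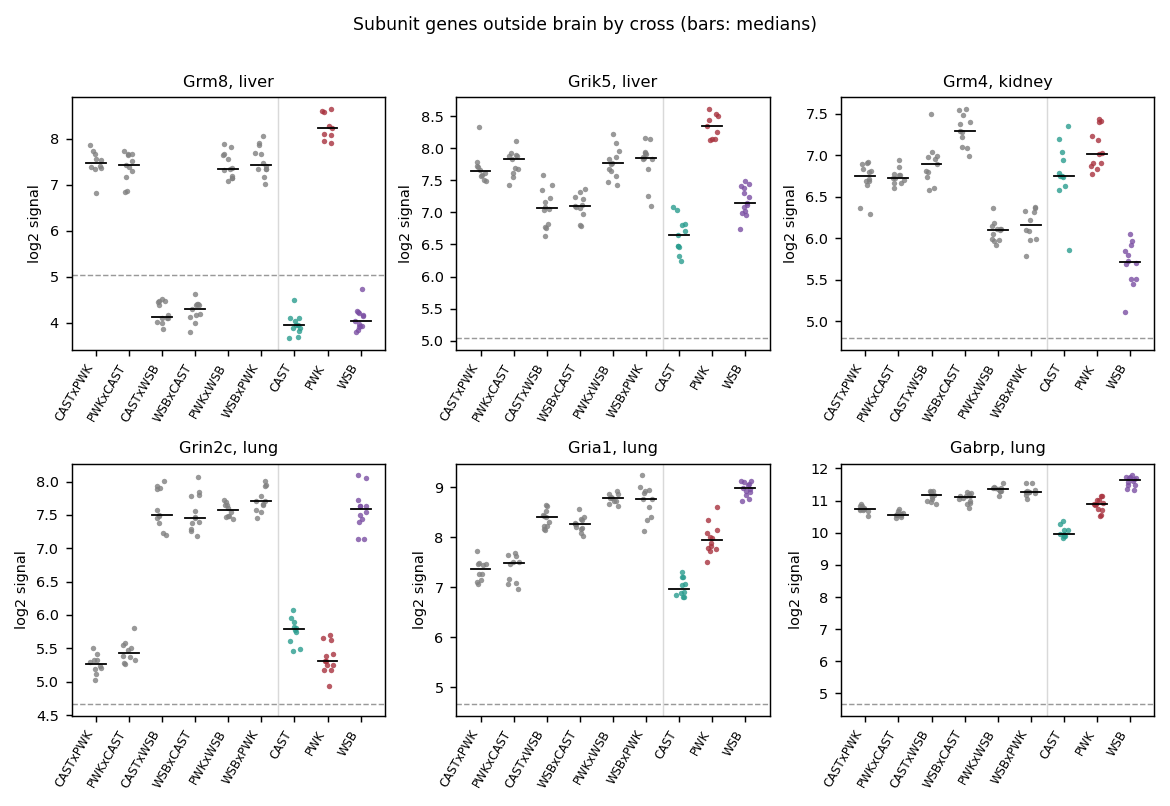
Log2 signal per array of Grm8 and Grik5 in liver, Grm4 in kidney, and Grin2c, Gria1 and Gabrp in lung, by cross, with F1 crosses in grey on the left and inbred strains in colour on the right; bars are medians and the dashed line is the odorant receptor 95th percentile of the tissue. Grm8 splits into livers with a PWK parent at 6.82 or above and livers without one at 4.73 or below, and Grin2c into lungs with a WSB parent at 7.13 or above and the rest at 6.08 or below.

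Grin2c in lung divided the crosses by WSB parentage. It had 7.20, 7.50 and 8.01 in CASTxWSB, 7.18, 7.46 and 8.06 in WSBxCAST, 7.43, 7.58 and 7.72 in PWKxWSB and 7.45, 7.70 and 8.01 in WSBxPWK lungs. It had 5.03, 5.26 and 5.50 in CASTxPWK, 5.27, 5.42 and 5.80 in PWKxCAST, 5.47, 5.79 and 6.08 in CAST, 4.93, 5.31 and 5.70 in PWK and 7.13, 7.59 and 8.10 in WSB lungs. F1 lungs with a WSB parent were at the WSB level and did not overlap lungs without one. CAST was lower than WSB, at -1.814 ± 0.087 (adjusted p = 4.58e-33) and PWK lower still, at -2.25 ± 0.082 (adjusted p = 1.55e-41, limma). The excess over the mid-parent was 0.89 ± 0.060 for CAST and WSB (adjusted p = 3.44e-22; 30.5% of all genes called) and 1.17 ± 0.060 for PWK and WSB (adjusted p = 1.06e-29, limma; 37.2% called). Unlike Grm8 in liver, it stayed at 0.62 and 0.78 against the mean of unlogged signals. The PWK minus WSB difference of Grin2c was -0.20 in brain and -2.25 in lung, and brain minus lung was 2.04 ± 0.12 (adjusted p = 4.13e-44, limma; 24.6% called).

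Gria1 and Gabrp in lung were lowest in CAST, intermediate in PWK and highest in WSB. Gria1 had 6.80, 6.97 and 7.31 in CAST, 7.52, 7.94 and 8.61 in PWK and 8.74, 8.98 and 9.13 in WSB, without overlap, and CAST was lower than WSB, at -1.95 ± 0.088 (adjusted p = 5.65e-35, limma). Its F1 medians were 8.40 in CASTxWSB, 8.27 in WSBxCAST, 8.78 in PWKxWSB, 8.77 in WSBxPWK, 7.36 in CASTxPWK and 7.48 in PWKxCAST, each between the medians of its parents. The CAST minus WSB difference of Gria1 was 0.12 in brain and -1.95 in lung, opposite in direction, and brain minus lung was 2.06 ± 0.14 (adjusted p = 2.91e-34, limma; 32% of all genes called). Gabrp had 9.84, 9.96 and 10.36 in CAST, 10.53, 10.89 and 11.16 in PWK and 11.33, 11.64 and 11.79 in WSB, again without overlap. CAST was lower than WSB, at -1.597 ± 0.061 (adjusted p = 6.45e-40) and than PWK, at -0.86 ± 0.061 (adjusted p = 1.84e-22, limma). F1 lungs exceeded the mid-parent of CAST and WSB by 0.29 ± 0.043 (adjusted p = 4.15e-08, limma), with medians of 11.19 in CASTxWSB and 11.11 in WSBxCAST.

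Lung samples held varying amounts of heart muscle RNA. The mean of 4 heart muscle genes had a lowest, median and highest value of 9.48, 10.81 and 11.96 in CAST, 8.82, 9.40 and 12.29 in PWK and 10.29, 11.36 and 12.69 in WSB lungs, with all 4 genes called lower for PWK minus WSB. The mean of 6 lung epithelium genes lay between 12.16 and 12.41 in all 3 strains. By median the heart muscle genes were lowest in PWK, then CAST, then WSB, which is also the order of the Grin2c medians, while Gria1 and Gabrp were lowest in CAST. The heart muscle ranges of the 3 strains overlapped, whereas Grin2c in WSB lungs did not overlap CAST or PWK lungs. The part of the heart muscle genes in the lung differences was not tested.

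The start regions of 4 genes with large differences outside brain are shown for comparison, in the same RefSeq build and with the same strings in capitals. All lie on the minus strand, Grm8 at chr6:28135097-28135396, Grin2c at chr11:115267194-115267493, Grik5 at chr7:25072320-25072619 and Gabrp at chr11:33578908-33579207. The share of G and C was 67.0%, 70.0%, 72% and 50.3%, and the number of CpG pairs 33, 22, 10 and 4. The medians over the 40 windows of receptor subunits were 59.3% and 11.5 CpG pairs, and those over all genes 52.7% and 7 CpG pairs. Grm8 has 3 annotated windows, with 67.0%, 54.0% and 43.3% G and C, and the first is shown. Which start the array signal came from was not tested.
Grm8: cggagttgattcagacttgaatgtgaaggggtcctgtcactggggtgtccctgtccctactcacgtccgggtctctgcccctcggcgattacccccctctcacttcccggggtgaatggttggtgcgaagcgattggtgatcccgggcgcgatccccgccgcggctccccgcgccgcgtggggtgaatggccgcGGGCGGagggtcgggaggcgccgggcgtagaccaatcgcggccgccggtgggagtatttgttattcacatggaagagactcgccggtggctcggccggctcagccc
Grin2c: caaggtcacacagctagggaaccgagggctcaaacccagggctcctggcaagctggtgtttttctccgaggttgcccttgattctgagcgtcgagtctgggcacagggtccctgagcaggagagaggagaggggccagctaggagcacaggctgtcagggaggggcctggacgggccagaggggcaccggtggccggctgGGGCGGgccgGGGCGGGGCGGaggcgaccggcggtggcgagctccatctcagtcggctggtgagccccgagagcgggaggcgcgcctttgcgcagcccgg
Grik5: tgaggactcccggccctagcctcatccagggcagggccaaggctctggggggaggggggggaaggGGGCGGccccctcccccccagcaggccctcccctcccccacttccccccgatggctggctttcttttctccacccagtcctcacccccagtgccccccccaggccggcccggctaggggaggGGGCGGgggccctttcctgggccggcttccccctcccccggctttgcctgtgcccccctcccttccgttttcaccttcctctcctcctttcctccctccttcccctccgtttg
Gabrp: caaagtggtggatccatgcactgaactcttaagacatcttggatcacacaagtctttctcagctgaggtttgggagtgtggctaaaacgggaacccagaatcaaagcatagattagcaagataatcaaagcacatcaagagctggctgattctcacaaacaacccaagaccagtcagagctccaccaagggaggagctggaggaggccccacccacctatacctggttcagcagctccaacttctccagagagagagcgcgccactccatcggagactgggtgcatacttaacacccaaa

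Fitting every gene without the level filter brought all 43 subunits into the strain contrasts outside brain. Then 15, 21 and 19 were called in lung for CAST minus PWK, CAST minus WSB and PWK minus WSB, against 47.2%, 45.4% and 46.4% of all genes. In kidney 14, 11 and 20 were called, against 43.2%, 42.6% and 44%, and in liver 9, 6 and 9, against 33%, 38.1% and 36.6%. Subunits under the filter are named where at least 1 group mean exceeded the odorant receptor percentile and the difference was at least 0.5, which gave 12 in lung, 8 in kidney and 2 in liver, a choice made after the values were seen. Since size chose them, their number supports nothing and their values are a description, and where a group lies at or below the percentile the difference is measured against background.

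In lung, Grin3a had 4.91, 5.02 and 5.26 in CAST, 6.63, 7.19 and 7.68 in PWK and 4.64, 5.23 and 5.53 in WSB. PWK stood above the others without overlap. CAST was lower than PWK, at -2.06 ± 0.091 (adjusted p = 8.07e-36, limma). F1 lungs with a PWK parent lay between, with medians of 5.81 in CASTxPWK, 5.72 in PWKxCAST, 5.66 in PWKxWSB and 5.72 in WSBxPWK. Grik4 had 6.94, 7.26 and 7.31 in CAST, 5.59, 5.94 and 6.50 in PWK and 5.59, 5.95 and 6.35 in WSB, CAST standing above the others without overlap. CAST exceeded WSB by 1.25 ± 0.078 (adjusted p = 9.74e-26, limma). Glrb had 5.01, 5.60 and 6.34 in CAST, 5.29, 6.08 and 6.52 in PWK and 3.96, 4.27 and 4.67 in WSB, the low strain without overlap. PWK minus WSB was 1.67 ± 0.11 (adjusted p = 2.18e-24, limma), and WSB lungs were below or at the odorant receptor percentile.

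Gabre, which is X-linked, had 5.85, 6.11 and 6.29 in CAST, 5.70, 6.15 and 7.08 in PWK and 4.68, 5.06 and 5.58 in WSB lungs, WSB again being lowest without overlap. CAST exceeded WSB by 0.98 ± 0.13 (adjusted p = 1.57e-10, limma). The reciprocal F1 lungs differed, CASTxWSB being higher than WSBxCAST by 0.82 ± 0.12 (adjusted p = 1.11e-06, limma; 22.6% of all genes called). Gabre was among 6 of the 43 subunits called in that contrast, 4 higher and 2 lower. In the filtered fit 3 of 7 were called, as were 4381 of all 11292 genes. They were Gabbr1, Grik5 and Grin2d, higher in CASTxWSB by 0.26, 0.20 and 0.26. Grin2d was also higher in PWKxWSB than in WSBxPWK lungs, by 0.38 without overlap, where 949 of 11292 genes were called. Male F1 mice carry the X of their dam. The 5 CASTxWSB males ran from 5.77 to 6.56, and the 6 WSBxCAST males from 4.57 to 5.14, without overlap. Inbred CAST males ran from 5.86 to 6.29 and inbred WSB males from 4.91 to 5.58. The 6 CASTxWSB females ran from 5.63 to 6.39 and the 6 WSBxCAST females from 5.03 to 5.95, with overlap and medians of 5.98 and 5.55. The part of the X in the Gabre difference was not tested. It cannot be told apart here from other differences between these crosses.

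In kidney, Gabrg3 had 4.51, 4.95 and 5.30 in CAST, 6.55, 6.96 and 7.49 in PWK and 4.62, 5.03 and 5.32 in WSB, PWK standing above the others without overlap. PWK minus WSB was 1.98 ± 0.096 (adjusted p = 3.89e-34, limma). F1 kidneys of PWK and WSB were higher still, with 7.003, 7.48 and 7.81 in PWKxWSB and 7.08, 7.49 and 7.85 in WSBxPWK, an excess over the mid-parent of 1.48, or 1.17 against the mean of unlogged signals. F1 kidneys of CAST and PWK stayed between their parents, at 5.78, 6.13 and 6.53 in CASTxPWK and 5.91, 6.15 and 6.82 in PWKxCAST. Grik3 had 4.46, 4.90 and 5.29 in CAST, 6.31, 6.62 and 7.96 in PWK and 4.78, 5.01 and 6.36 in WSB kidneys, with 1 WSB kidney in the PWK range and CAST lower than PWK, at -1.799 ± 0.12 (adjusted p = 4.1e-25, limma). Gabrp was low in CAST kidneys, at 4.74, 5.08 and 5.60 against 5.81, 6.50 and 6.84 in WSB, without overlap, a difference of -1.28 ± 0.12 (adjusted p = 2.39e-16, limma), the direction it had in lung. Some kidneys carried adrenal RNA: the mean of 7 adrenal markers had a lowest, median and highest value of 4.56, 4.76 and 6.12 in CAST, 4.74, 5.10 and 10.09 in PWK and 4.69, 5.22 and 9.81 in WSB kidneys, and the PWK kidney at 10.09 was the one with the highest Grik3. Without the 17 of 102 kidneys at a mean of 6 or more, a limit chosen after the data were seen, CAST minus PWK was -1.62 for Grik3, PWK minus WSB was 2.12 for Gabrg3 and CAST minus WSB was -1.285 for Gabrp. In the filtered fit without those kidneys, PWK minus WSB was 1.43 for Grm4 and 0.71 for Grik5, and the Grm4 excess over the mid-parent of CAST and WSB was 0.79.

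In liver, Gabrd was high in CAST, at 6.45, 6.81 and 7.44 against 4.94, 5.32 and 5.55 in PWK and 4.90, 5.51 and 5.81 in WSB, without overlap. CAST exceeded PWK by 1.56 ± 0.12 (adjusted p = 3.95e-21) and WSB by 1.45 ± 0.11 (adjusted p = 1.04e-21, limma), whereas in brain CAST was the low strain for this gene. F1 livers of CAST and WSB had 5.60, 6.07 and 6.45 in CASTxWSB and 5.66, 6.29 and 6.75 in WSBxCAST, between the parents. Grin3a, high in PWK lung, had 4.51, 5.13 and 5.65 in CAST, 5.74, 6.15 and 6.52 in PWK and 4.85, 5.21 and 6.14 in WSB livers, and PWK exceeded WSB by 0.93 ± 0.11, with overlap (adjusted p = 8.03e-12, limma).

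**Figure D5:**
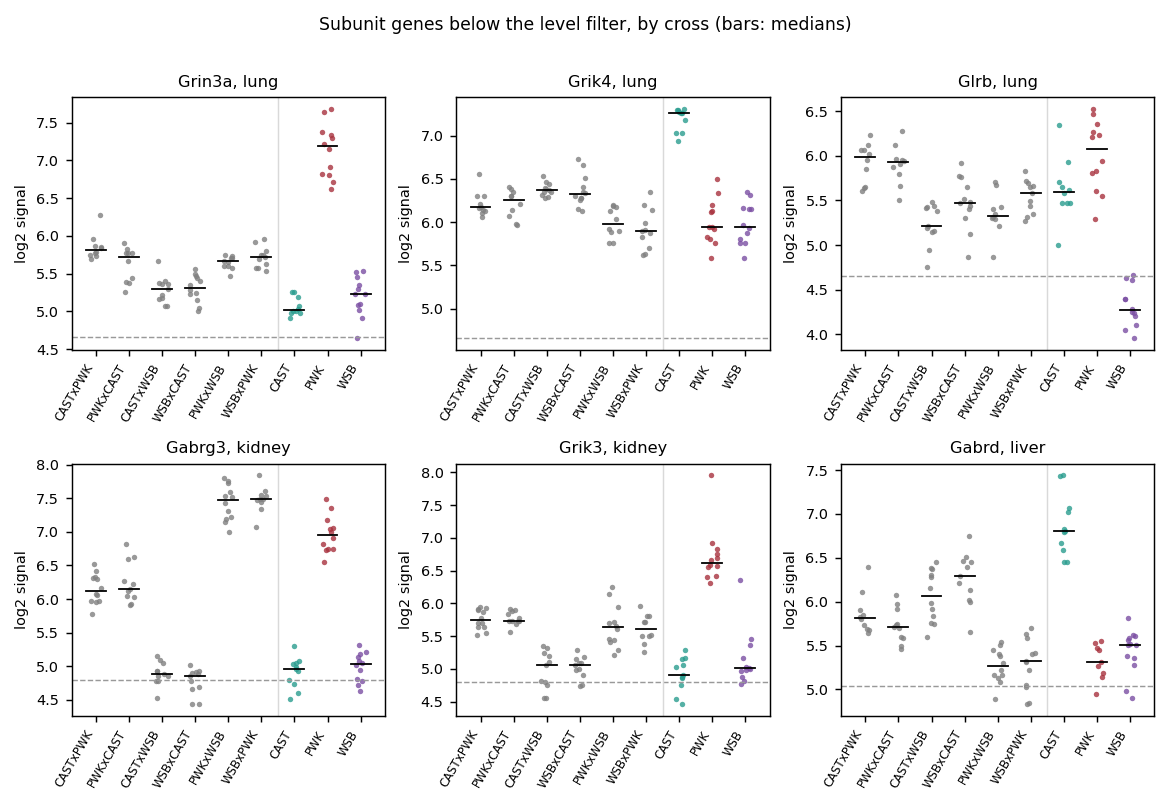
Log2 signal per array of 6 subunits that lay under the level filter, Grin3a, Grik4 and Glrb in lung, Gabrg3 and Grik3 in kidney and Gabrd in liver, by cross, with F1 crosses in grey on the left and inbred strains in colour on the right; bars are medians and the dashed line is the odorant receptor 95th percentile. In each panel 1 strain stands apart, PWK for Grin3a, Gabrg3 and Grik3, CAST for Grik4 and Gabrd, and WSB for Glrb.

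Whether a strain difference was the same in brain and elsewhere was tested as an interaction for the largest inbred difference of up to 4 subunits per tissue outside brain and for the 3 brain subunits that differed by at least 0.5. Of these 18 results 15 passed, which says little, because they were chosen for a large difference in 1 tissue. Besides those given, Grm4 for PWK minus WSB was 0.15 in brain and 1.40 in kidney, brain minus kidney being -1.25 ± 0.14 (adjusted p = 2.9e-15, limma; 25.4% of all genes called). Grik5 for CAST minus PWK was -0.072 in brain and -1.705 in liver, brain minus liver being 1.63 ± 0.13 (adjusted p = 4.13e-27, limma). Grin2b for CAST minus WSB was 0.63 in brain, against -0.58 in lung, 0.34 in kidney and 0.042 in liver. Brain minus lung was 1.21 (adjusted p = 5.12e-20, limma). Grin2b averaged 4.55 in kidney and 4.86 in liver, below the odorant receptor percentiles there, so a strain difference of the transcript was not measured in those tissues and their interactions, though called for brain minus kidney (23.8% of all genes called) and brain minus liver (30.3% called), compare brain with a background signal. The same holds for Glra3 and Gabrg1, which averaged 3.13 and 3.42 in lung, 3.45 and 3.95 in kidney and 4.04 and 4.08 in liver, and whose PWK minus WSB interactions with liver were not called (27.5% of all genes called).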

How the data were processed

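The authors deposited RMA log2 signals for 35556 probe clusters on 386 arrays, made with RMA and Affymetrix Expression Console per the submitters' processing notes. The sources used here do not say if all tissues entered 1 normalisation, so levels across tissues carry that limit. Clusters were named from GEO's platform annotation: 21218 had 1 symbol and 1881 several, which were left out, and 1386 of the 18820 genes had several clusters. No deposited column lacked a sample (0 columns). Groups were taken from the labels and the replicates are separate animals.

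From these values each tissue was fitted with 18 cross-by-sex means with limma 3.58.1 under R 4.3.3 (moderated by eBayes along a mean trend), on genes above the 40th percentile of tissue mean, with Benjamini-Hochberg adjustment over all genes tested and a threshold of 0.05. Tissues were compared over all genes. The fit was tested on simulated data. Subunits were named where an adjusted p passed the threshold, with differences of at least 0.5 or, in brain, the most significant per contrast, and the 6 highest means per tissue outside brain. Alternatives were other filters, the mean over clusters, array weights, animal-number runs or animals as a block, each array left out, and brain region covariates. The subunits and gene lists were chosen with earlier results of these data known.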

Additional observations from a re-analysis of the deposited data

Results flagged for a closer look

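In 6 cases 1 sample lay far from the rest of its cross by Dixon's ratio, over 96 groups examined, of which chance flags about 1 in 20. Glra3 in brain was 6.95 in CASTxPWK replicate 4, the lowest of 10, against 7.49 to 7.96 in the rest, and 7.10 in CASTxWSB replicate 7, the lowest of 8, against 7.55 to 7.87. Gria2 in brain was 10.67 in PWKxPWK replicate 1, the lowest of 6, against 10.86 to 10.96. Grm3 in brain was 10.90 in CASTxPWK replicate 8, against 11.07 to 11.26. In liver, Grik5 was 8.32 in CASTxPWK replicate 5, against 7.49 to 7.79, and Grm8 was 6.82 in CASTxPWK replicate 9, against 7.35 to 7.86.

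In 15 cases the strain difference in brain minus that in another tissue passed the interaction test of limma. Against lung, brain minus lung was 2.04 for Grin2c and 0.55 for Gabrg1 (PWK minus WSB), -0.71 for Grik5 and -0.55 for Glra3 (PWK minus WSB), and 2.06 for Gria1, 1.23 for Gabrp and 1.21 for Grin2b (CAST minus WSB). Against kidney, it was -1.25 for Grm4, -0.59 for Grik5 and 0.70 for Gabrg1 (PWK minus WSB), and 0.29 for Grin2b (CAST minus WSB). Against liver, it was 4.33 for Grm8, 1.63 for Grik5 and -0.77 for Gabbr2 (CAST minus PWK), and 0.58 for Grin2b (CAST minus WSB). Gabrg1 and Glra3 averaged below the odorant receptor percentile in lung, kidney and liver, and Grin2b in kidney and liver, so those values compare a difference in brain with a background signal. The results tested were chosen for a large difference in 1 tissue.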

How the results depend on the processing

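No difference of a named subunit reversed under any alternative run. Of the alternative values of single subunits 2874 kept their side of the threshold, 8 lost a call, 2 gained one and 4 moved in size. Of the alternative counts 978 stayed within 1.5 times and 26 did not. Most of these values came from leaving out 1 of the 85 brain arrays, so the totals say little about other choices. The F1 counts in brain were the least stable. With regional marker means as covariates, chosen after seeing the data, 0 subunits passed for CAST and PWK, 7 for CAST and WSB and 2 for PWK and WSB, where 9, 14 and 1 passed without them. The shares of all genes called in that fit are not given here. With animal-number runs as a block 5 passed for CAST and PWK. With array weights 4 passed for PWK and WSB, and 2 for PWKxWSB minus WSBxPWK. Leaving out each array gave 4 to 12 for CAST and PWK (4 without PWKxPWK replicate 3), 11 to 16 for CAST and WSB and 1 to 3 for PWK and WSB, and 9 to 17, 13 to 18 and 6 to 8 for the 3 strain contrasts. The causes were not tested.

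Outside brain the filter sets how many subunits are tested. With no filter 25 of 43 in lung, 25 in kidney and 14 in liver were called in at least 1 strain contrast. With the filter 5 of 7, 3 of 4 and 4 of 5 were called, against 84.7%, 84.7% and 79.1% of all genes. The same shares of all genes without the filter are not given here. At the 60th percentile 2 in lung and 1 in liver were called. Between tissues 10 subunits were called in each contrast with the 40th percentile filter, since fewer were tested. Above the odorant receptor 99th percentile 12 subunits remained in lung and 11 in liver, without a share of all genes to set beside them. Animals gave samples of several tissues, and with the animal as a replicate block no interaction call changed.

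Limits: signal near background compresses differences between subunits outside brain, the number of arrays sets the precision, and brain samples varied in regional marker levels.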
